A study of Homo sapiens with 49 samples.

Results

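The peaks deposited for 7 transcription factor genes of the endometrium and the Müllerian duct were examined: SOX17, PAX8, PAX2, EMX2, FOXA2, MSX1 and HAND2. They were chosen by name, and each gene was given a window of its GENCODE gene body on hg19 (GRCh37) with 50 kb on each side. They are 7 of the 20098 protein-coding genes on chromosomes 1 to 22 and X, and their windows held 329 of the 528044 regions in all lists. Chromatin immunoprecipitation followed by sequencing (ChIP-seq) had been performed in Ishikawa cells, a line from an endometrial adenocarcinoma, and in T-47D cells, which come from a ductal carcinoma of the breast. After growth in hormone-depleted medium, cells of either line received the vehicle DMSO or 10 nM of 17β-estradiol (E2). The treatment lasted 1 h where a protein was precipitated and 8 h where a histone mark was. SIN3A was instead profiled in hormone-stripped and in full media in both lines, and H3K36me3 in Ishikawa cells in full media. The sample labels gave no genotype, each tissue was represented by 1 cancer cell line, and the study did not authenticate the cells. Between the 2 lines, tissue and genetic background therefore cannot be told apart. The 45 peak lists, 21 from Ishikawa and 24 from T-47D, formed 43 groups. All groups but the 2 of T-47D RNA polymerase II (RNAPII) were single libraries, so differences between lines or treatments had no replicate check and no p-value was computed. RNAPII had 2 libraries per treatment, for which the smallest two-sided exact permutation p is 0.333.

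A region in the text below is 1 deposited peak, and fold is its fold enrichment, the authors' ratio of ChIP signal to local background at the highest point. List length sets how many regions a window can hold, and it differed widely between libraries. Ishikawa lists held from 2 regions (MYC, E2) to 31901 (H3K4me3, E2), and T-47D lists from 42 (LSD1, DMSO) to 46282 (RNAPII, E2, replicate 1). In T-47D, TAF1 (4591 and 5645 regions), H3K4me1 (6408 and 1960), LSD1 (42 and 442) and SIN3A (75 and 649) had far shorter lists than in Ishikawa, so a missing region of these targets in T-47D does not show absence at this depth. H3K4me3 lists were of similar length in both lines, with 29597 and 31901 regions in Ishikawa and 30774 and 29081 in T-47D. The lists labelled H3K27me3, usually a repressive mark, overlapped H3K4me3 regions of the same cells in 81.5% (Ishikawa DMSO), 96.3% (Ishikawa E2) and 85.7% (T-47D DMSO) of their regions, which had median widths of 238 to 328 bp. The T-47D E2 list held 107 regions, of which 5.61% did. They are therefore named here as labelled, with no repressive role read from them. The sequence recognised by JUN dimers, the AP-1 site TGANTCA, stood within 200-bp windows at the highest points of 22.8% and 17.1% of Ishikawa JUN regions (DMSO and E2) but of 4.94% and 3.38% of T-47D JUN regions, against 3.55% at Ishikawa H3K4me3 regions (E2). The part of this difference in the results for JUN was not tested.

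The 7 genes encode DNA-binding proteins that pattern the reproductive tract. The Müllerian (paramesonephric) duct forms the oviduct, uterus and upper vagina. PAX2, PAX8 and EMX2 are needed for its formation or upkeep, and PAX8 and SOX17 serve in pathology as markers of Müllerian epithelium. FOXA2 acts in the glands of the endometrium, MSX1 in its epithelium, and HAND2 in the stroma, where it responds to progesterone. H3K4me3 marks promoters in use or ready for use, H3K4me1 marks enhancers, and TAF1, a subunit of TFIID, sits where RNAPII starts. JUN is an AP-1 activator, LSD1 a histone demethylase and SIN3A the scaffold of a histone deacetylase complex.

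Outside the start sites, 5 places are shown as 200 bp of the GRCh37 plus strand around a highest point. At HAND2 downstream H3K4me3 was the only target, in both lines, and at the others several targets met. In the first 3 and the last, capitals mark the stretch that holds the highest points of the lists counted for it. In PAX8 intragenic they mark AP-1 matches. EMX2 downstream lies at chr10:119313015-119313214, 11.16 kb past the most 5′ start. Its capitals span 73 bp with the highest points of 9 Ishikawa lists, selected from the 16 with a region at this place. PAX8 far upstream (chr2:114046327-114046526, at -9.93 kb) spans 15 bp and 5 Ishikawa lists. PAX8 near upstream (chr2:114041480-114041679, at -5.08 kb) spans 86 bp and 7 of 8 Ishikawa lists, without H3K4me3 in E2. PAX8 intragenic lies at chr2:113998504-113998703, at 37.9 kb, in a JUN region that overlaps noncoding exons of PAX8, of its antisense gene PAX8-AS1 and of RP11-65I12.1. HAND2 downstream (chr4:174415439-174415638, at 35.84 kb) is intergenic and spans 108 bp with the highest points of the 4 H3K4me3 lists of both lines. The EMX2 and both PAX8 upstream stretches are intergenic. PAX8 lies on the minus strand, so its direction of transcription runs opposite to the letters.
EMX2 downstream: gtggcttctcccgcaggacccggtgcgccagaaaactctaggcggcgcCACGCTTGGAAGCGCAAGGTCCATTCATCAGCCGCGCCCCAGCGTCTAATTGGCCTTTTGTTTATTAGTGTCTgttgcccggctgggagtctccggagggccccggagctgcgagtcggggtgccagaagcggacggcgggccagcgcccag
PAX8 far upstream: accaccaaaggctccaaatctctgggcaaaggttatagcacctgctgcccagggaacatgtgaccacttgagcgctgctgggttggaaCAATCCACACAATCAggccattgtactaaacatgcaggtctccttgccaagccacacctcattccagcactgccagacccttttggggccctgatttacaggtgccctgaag
PAX8 near upstream: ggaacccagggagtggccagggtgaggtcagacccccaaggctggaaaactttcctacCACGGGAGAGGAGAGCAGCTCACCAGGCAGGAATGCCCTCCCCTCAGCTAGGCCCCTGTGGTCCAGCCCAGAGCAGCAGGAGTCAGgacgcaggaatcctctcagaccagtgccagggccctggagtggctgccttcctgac
PAX8 intragenic: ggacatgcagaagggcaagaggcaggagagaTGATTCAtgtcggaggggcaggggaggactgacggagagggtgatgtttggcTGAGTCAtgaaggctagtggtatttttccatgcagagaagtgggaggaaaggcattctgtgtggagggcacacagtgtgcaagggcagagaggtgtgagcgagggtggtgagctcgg
HAND2 downstream: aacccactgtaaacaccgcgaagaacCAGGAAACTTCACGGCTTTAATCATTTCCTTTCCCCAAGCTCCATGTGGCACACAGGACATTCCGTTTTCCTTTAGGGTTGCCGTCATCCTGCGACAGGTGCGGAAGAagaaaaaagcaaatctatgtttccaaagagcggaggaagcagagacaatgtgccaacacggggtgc

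Letters were searched on both strands for the full estrogen response element GGTCANNNTGACC, the AP-1 site TGANTCA and the E-box CACGTG, which do not overlap one another in these stretches. PAX8 intragenic held 2 AP-1 matches, and the other 4 stretches held none of the motifs. Of 200-bp windows at all Ishikawa JUN E2 regions, 17.1% held an AP-1 match and 0.311% an estrogen response element. Across the 31 merged Ishikawa regions present in at least 3 lists (46.7 kb in all), 10 held an AP-1 match, 4 an E-box and 0 an estrogen response element. These regions were 374 to 6950 bp wide, and no share was counted over other stretches of such widths. Whether the counts differ from those of other sequence was not tested. In 501 bp around the most 5′ start, 0 of the 7 genes held any of these letters, against 9.12%, 11.1% and 0.0746% of all protein-coding genes for AP-1, E-box and estrogen response element. These are matches of letters in windows and not sites of binding.

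The windows held 298 regions in Ishikawa and 31 in T-47D. Per 10000 regions of all lists this was 11.8 in Ishikawa and 1.12 in T-47D. Over the 20 pairs of lists for a target and treatment in both lines, which leave out RNAPII and H3K36me3, it was 11.8 (298 regions) and 1.65 (24 regions). Of the Ishikawa regions, 51 stood at a start site (within 250 bp of any transcript start), 83 elsewhere in a gene body and 164 in the flanks. In T-47D these numbers were 8, 11 and 12. The PAX8 window held 155 of the Ishikawa regions and 3 of the T-47D regions. Of the 155, 83 stood in the flanks, some of them within the neighbouring coding gene PSD4, and cannot be assigned to PAX8 by position. Over the same pairs, leaving out PAX8 after its values were seen gave 143 and 23 regions. EMX2 had 45 in Ishikawa and 2 in T-47D, MSX1 41 and 8, SOX17 37 and 0, PAX2 15 and 13, HAND2 5 and 4, and FOXA2 0 and 1. Thus the windows of PAX8, EMX2, MSX1 and SOX17 carried the difference, whereas the numbers for PAX2, HAND2 and FOXA2 were closer between lines. The numbers by gene are over all lists. Those of T-47D include RNAPII at PAX8, PAX2 and MSX1, a target without an Ishikawa list. Close totals do not mean shared places, as HAND2 had start-site H3K4me3 in Ishikawa only.

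**Figure D1:**
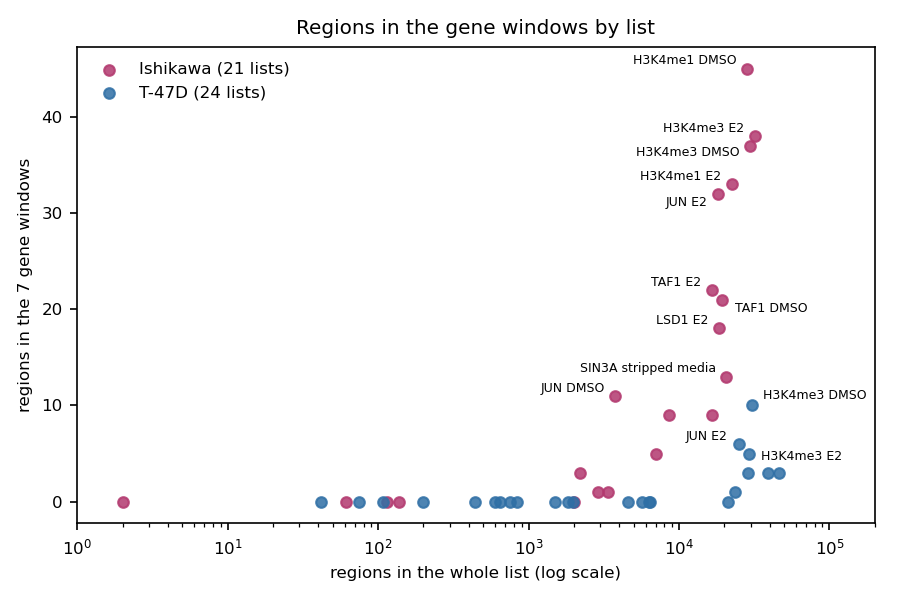
Regions in the 7 gene windows (y axis) against the length of each list (x axis, log scale), 1 point per list, for Ishikawa and T-47D. At lists of about the same length, Ishikawa H3K4me3 had 37 and 38 regions and T-47D H3K4me3 10 and 5, and all T-47D lists of 6408 regions or fewer sat at 0.

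For H3K4me3, whose lists were of similar length, the window counts differed between the lines all the same. When the longer list of each pair of lines was cut to the shorter by p-value, the 20 pairs held 127 Ishikawa regions (298 uncut) and 18 T-47D regions (24 uncut). For H3K4me1, LSD1, SIN3A and TAF1 the line and the list length cannot be told apart in the uncut lists. Ishikawa H3K4me1 regions in the windows went from 45 and 33 (DMSO and E2) to 6 and 1 after the cut, while T-47D had 0 in both.

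**Figure D2:**
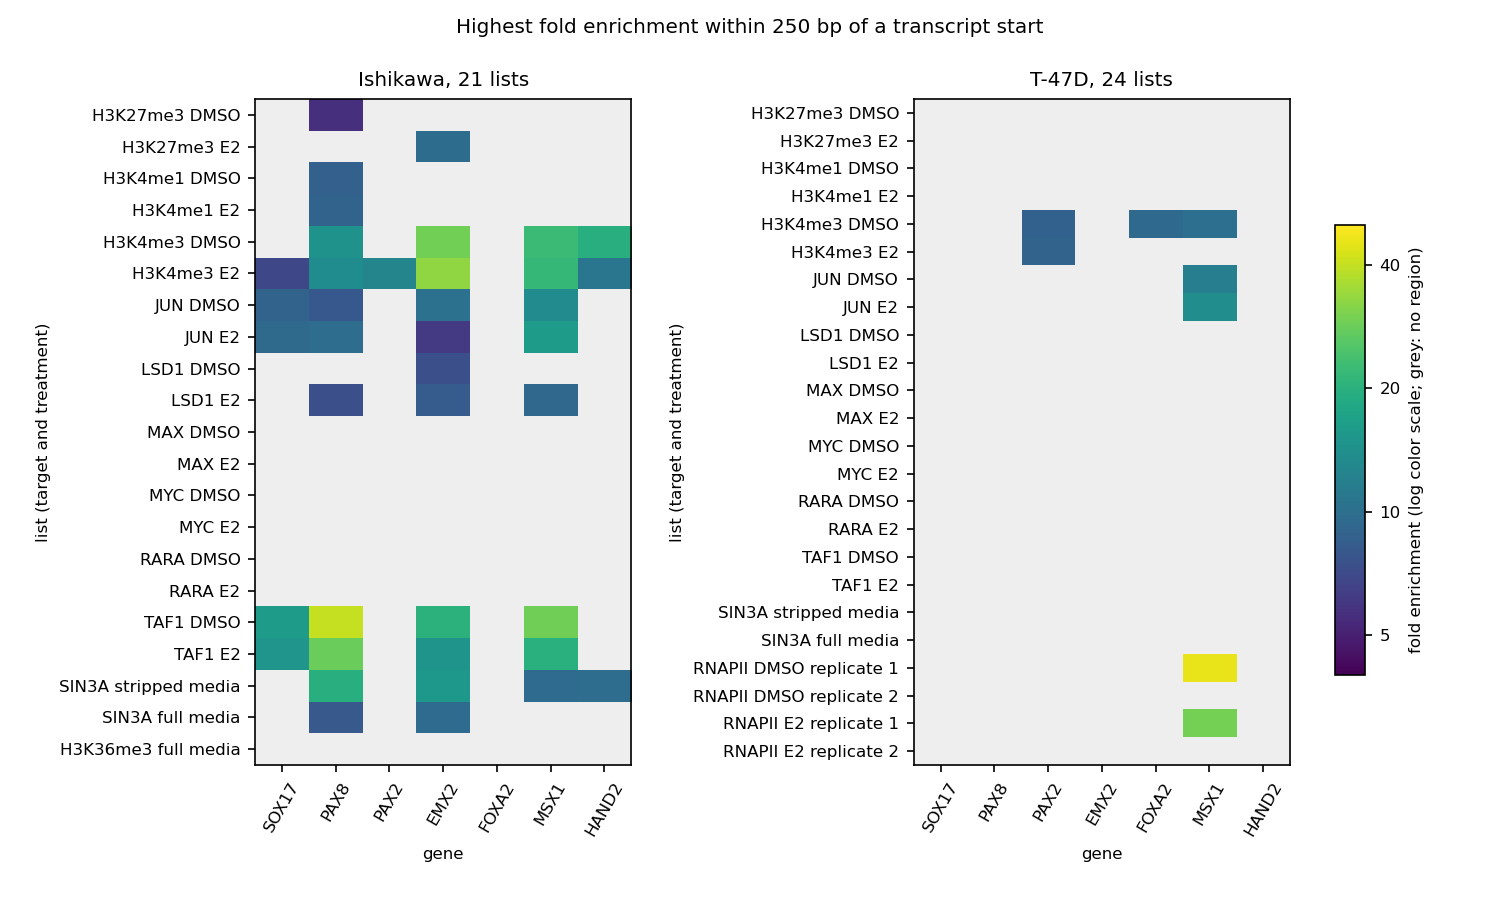
Highest fold enrichment (color, log scale) of a region at a start site of each gene (columns) in each list (rows), for Ishikawa on the left and T-47D on the right, with grey for no region. PAX8 is filled in 12 Ishikawa lists and EMX2 in 11, and neither is filled in T-47D, where MSX1 is filled in 5 lists.

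At start sites, Ishikawa had H3K4me3 at 4 of the 7 genes in DMSO (PAX8, EMX2, MSX1 and HAND2) and at 6 in E2, where SOX17 and PAX2 were added. The share of all protein-coding genes with such a region was 67.3% in DMSO and 68.2% in E2, so the members as a set were not set apart by having the mark in Ishikawa. In T-47D, 3 members had it in DMSO (PAX2, FOXA2 and MSX1; 62.1% of all genes) and 1 in E2 (PAX2; 59.0%). The genes with the mark in Ishikawa and not T-47D were PAX8, EMX2 and HAND2 in DMSO, 3 of 7 against 7.57% of all genes. In E2 these were SOX17, PAX8, EMX2, MSX1 and HAND2, 5 of 7 against 11.0%. Of these, SOX17 had a fold of only 6.95 in Ishikawa. For MSX1, T-47D had a region in E2 just outside the limit of 250 bp, and with 1 kb either side T-47D had the mark at 2 members. The reverse held for PAX2 and FOXA2 in DMSO, 2 of 7 against 2.32% of all genes, and for 0 members in E2 against 1.74%.

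Of the other targets, TAF1 stood at the starts of SOX17, PAX8, EMX2 and MSX1 in both Ishikawa treatments (4 of 7, against 59.9% of all genes in DMSO and 55.8% in E2) and at none of the 7 in T-47D (23.0% and 27.9%). With lists of equal length, 2 of the 7 had TAF1 in Ishikawa DMSO (26.3% of all genes) and 3 in E2 (31.2%). The same 4 genes carried JUN at a start in Ishikawa in DMSO, where the list was short and 3.98% of all genes did, and again in E2, where 32.7% did. LSD1 was at EMX2 alone in DMSO (1 of 7; 16.7% of all genes) and at PAX8, EMX2 and MSX1 in E2 (3 of 7; 40.6%). SIN3A was at PAX8, EMX2, MSX1 and HAND2 in stripped media (4 of 7; 59.5%) and at PAX8 and EMX2 in full media (2 of 7; 50.5%). H3K4me1 was at the starts of PAX8 only, in DMSO (8.59% of all genes) and E2 (7.4%). The mark labelled H3K27me3 was at PAX8 in DMSO (2.5% of all genes) and at EMX2 in E2 (25.4%). MAX, MYC, RARA and H3K36me3 had no region at any start of the 7 genes in Ishikawa, from lists of 2 to 3368 regions.

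PAX8 (chr2:113973574-114036498, minus strand, 10 transcript starts) encodes a paired-box factor of thyroid, kidney and Müllerian epithelium. Its main start carried H3K4me3 from -0.12 to 3.10 kb in Ishikawa DMSO, at a fold of 14.5, and from -0.06 to 2.23 kb in E2, at 13.7. The DMSO region, 3224 bp wide, was number 71 by width among 29597. Its fold was not high: of genes with an H3K4me3 region at a start, 84.8% were as high in DMSO and 90.3% in E2. TAF1 at this start had a fold of 39.9 in DMSO and 28.1 in E2. Of the 12044 genes with a TAF1 region at a start in DMSO, 7.39% were as high. SIN3A stood at the same place with folds of 19.5 in stripped and 8.08 in full media, JUN with 8.02 in DMSO and 9.83 in E2, and LSD1 with 7.39 in E2. Of genes with a SIN3A region at a start, 67.6% and 93.1% were as high. For JUN this was 65.0% and 24.6%, and for LSD1 70.2%. The merged region at the main start was held by 10 Ishikawa lists and 6 targets. Counting the internal starts, where H3K4me1 stood with 8.68 and 8.94, 12 of 21 Ishikawa lists and 0 of 24 T-47D lists had a region at a PAX8 start.

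Upstream of PAX8, LSD1, JUN, SIN3A and TAF1 met at -9.93 kb. The LSD1 fold there was 21.4 in DMSO and 15.7 in E2, the JUN fold 17.6 in E2 (no region in DMSO), the SIN3A fold 14.5 in stripped media and the TAF1 fold 12.8 in DMSO. In DMSO the LSD1 region ranked number 474 of 8618 by fold. Near -5.08 kb SIN3A reached 24.9 in stripped media, its highest fold in all 7 windows, and 12.3 in full media. JUN in E2 had 20.3 there, LSD1 9.50 and 15.3 (DMSO and E2), and TAF1 16.8 and 9.84. The merged region there, from -5.46 to -4.80 kb, held 1 AP-1 match, at -4.88 kb. T-47D had no region at either upstream place. These places and PAX8 intragenic were chosen for display after their values were seen.

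Within PAX8, JUN stood at 37.9 kb with a fold of 10.0 in DMSO and 17.4 in E2, over the stretch with 2 AP-1 matches printed above, and LSD1 joined in E2 with 7.78. At 52.8 kb SIN3A had 19.3 in stripped and 8.69 in full media, LSD1 6.92 in DMSO and 8.87 in E2, and JUN 10.1 in E2. H3K4me1 formed 40 regions over the PAX8 window in DMSO, which covered 16.5 kb at folds of 4.86 to 12.5, and 29 in E2, which covered 13.7 kb at 4.34 to 9.82. As many H3K4me1 regions were found in the windows of 0.144% of all genes in DMSO and 0.393% in E2, with a median over genes of 1 and 0. This window is 163 kb long, and longer windows hold more regions.

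Beyond the 3′ end of PAX8, the place outside its start sites held by most Ishikawa lists, 13 of 21 from 7 targets, ran from 75.46 to 77.92 kb. It lies within the neighbouring coding gene PSD4, so it cannot be assigned to PAX8 by position. SIN3A was highest there, with 18.6 in stripped media. T-47D regions in the PAX8 window stood only from 79.37 to 80.17 kb, at another start of PSD4, with RNAPII folds of 27.7 (DMSO, replicate 1) and 10.0 (E2, replicate 1) and a JUN fold of 8.98 (E2). Ishikawa had regions in 10 lists at the same PSD4 start.

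**Figure D3:**
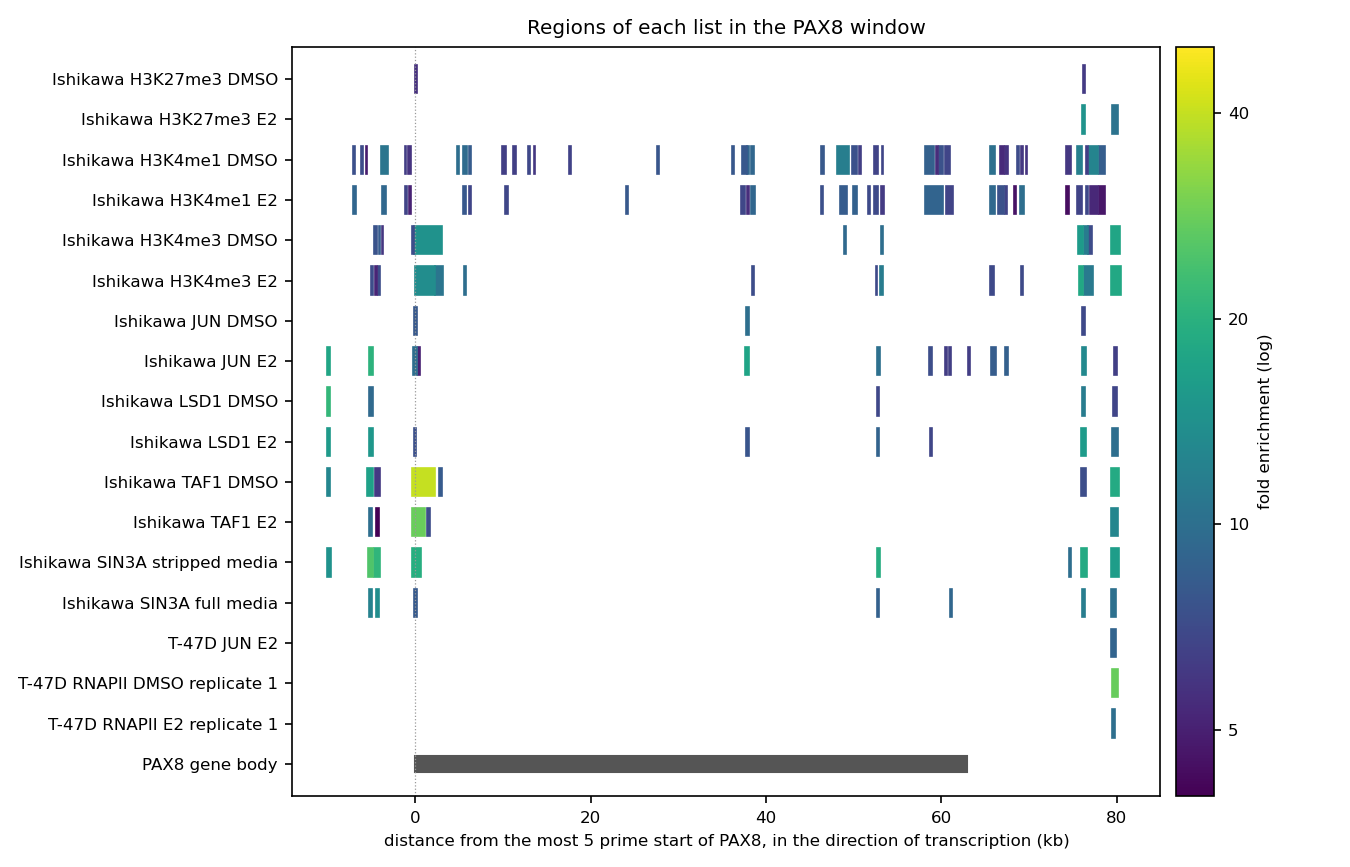
Regions of each list (rows) along the PAX8 window, by distance in kb from the most 5′ start in the direction of transcription (x axis), colored by fold enrichment (log scale), with the gene body as a grey bar. Ishikawa rows hold regions at the start, at -9.93 and -5.08 kb and through the body, whereas the 3 T-47D rows hold a region only near 80 kb, at PSD4.

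PAX2 (chr10:102495153-102589701, plus strand, 8 starts), the paired-box relative of PAX8, had no region at its most 5′ start in any list. H3K4me3 stood at an internal start near 10 kb, with a fold of 8.75 in T-47D DMSO, 8.98 in T-47D E2 and 12.6 in Ishikawa E2, and no region in Ishikawa DMSO. The lines differed at the 3′ end of the gene, over its last coding and untranslated exons. In T-47D a merged region from 91.21 to 92.38 kb was held by 7 lists, with H3K4me3 folds of 13.4 and 13.2 (DMSO and E2), JUN folds of 12.5 and 16.0, and RNAPII folds of 24.3 (DMSO, replicate 1), 6.49 (E2, replicate 1) and 10.8 (E2, replicate 2). In Ishikawa the merged region ran from 92.22 to 93.43 kb in 6 lists, with H3K4me3 folds of 14.7 and 20.0, LSD1 in E2 at 12.3, TAF1 in DMSO at 9.53 and H3K4me1 at 4.84 and 5.35. The 2 merged regions thus overlapped only at their edges. T-47D H3K4me3 also had a second, weaker region inside the Ishikawa stretch, at folds of 7.17 and 8.03. At -25 kb, an intergenic place, H3K4me3 was in both Ishikawa lists (10.6 and 13.9), LSD1 (10.8) and the mark labelled H3K27me3 (10.6) in Ishikawa E2, and JUN in T-47D E2 (12.2).

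EMX2 (chr10:119301956-119309057, plus strand, 4 starts) encodes a homeobox factor of the urogenital tract and forebrain, and its antisense gene EMX2OS starts 126 bp from it. Most of the gene body lay under H3K4me3 in Ishikawa. In E2 a single region ran from -0.74 to 6.08 kb with a fold of 32.9. At 6819 bp it was the widest of the 31901 regions of its list. In DMSO the same span was split into 4 regions with folds of 18.0, 29.3, 12.0 and 12.7, so the window held 6 regions in DMSO and 4 in E2, while the covered length was 9.61 kb in DMSO and 10.3 kb in E2. TAF1 covered -0.44 to 4.84 kb in DMSO, with a fold of 20.2, and this region was number 2 by width of 19349. At the start, SIN3A had folds of 15.4 and 9.63, JUN 10.4 (at an internal start, 0.45 to 0.67 kb) and 6.13, and LSD1 7.39 and 8.34, each in the order DMSO (or stripped) and E2 (or full).

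The intergenic place 8.88 to 12.09 kb from the EMX2 start (chr10:119310832-119314049) was held by 16 of the 21 Ishikawa lists and by 9 of 11 targets, more than any other merged region in the 7 windows. LSD1 had a fold of 27.5 in DMSO and 43.0 in E2, number 165 by fold among 18384 regions and the highest LSD1 value of the 7 windows. JUN had 17.5 in DMSO and 31.6 in E2, TAF1 33.0 and 27.2, and the mark labelled H3K27me3 11.6 and 23.4. SIN3A had 12.7 in stripped and 7.85 in full media. MAX in DMSO (9.77) and RARA in E2 (10.9) had their only regions of the 7 windows here. H3K4me3 covered the place with 14.6 in DMSO, in 1 region of 2977 bp. In E2 it was split, with 21.2 from 8.88 to 10.25 kb and 7.54 from 10.31 to 12.06 kb. The E2 region with 7.54 was the one over the capitals of EMX2 downstream. H3K4me1 lay within the place, in DMSO with 6.83 from 10.49 to 10.71 kb and 18.0 from 11.56 to 12.09 kb. In E2 it had 8.72 from 11.52 to 12.04 kb. The highest points of 9 of these lists fell within the 73 bp in capitals in EMX2 downstream. These were both lists of LSD1, JUN and H3K27me3, MAX in DMSO, RARA in E2 and SIN3A in stripped media. They were selected from the 16, and the stretch was drawn without both TAF1 lists, SIN3A in full media, H3K4me3 and H3K4me1. The nearest E-box, the sequence bound by MAX and MYC, was at 11.33 kb. It lay outside that stretch but within the MAX region, which ran from 11.04 to 11.56 kb. E-boxes were present in 31.7% of 200-bp windows at Ishikawa MAX regions. T-47D had no region there, and its only EMX2 regions were at -7.01 kb, in an intron of EMX2OS (H3K4me3 in DMSO, 7.70, and JUN in E2, 8.46).

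**Figure D4:**
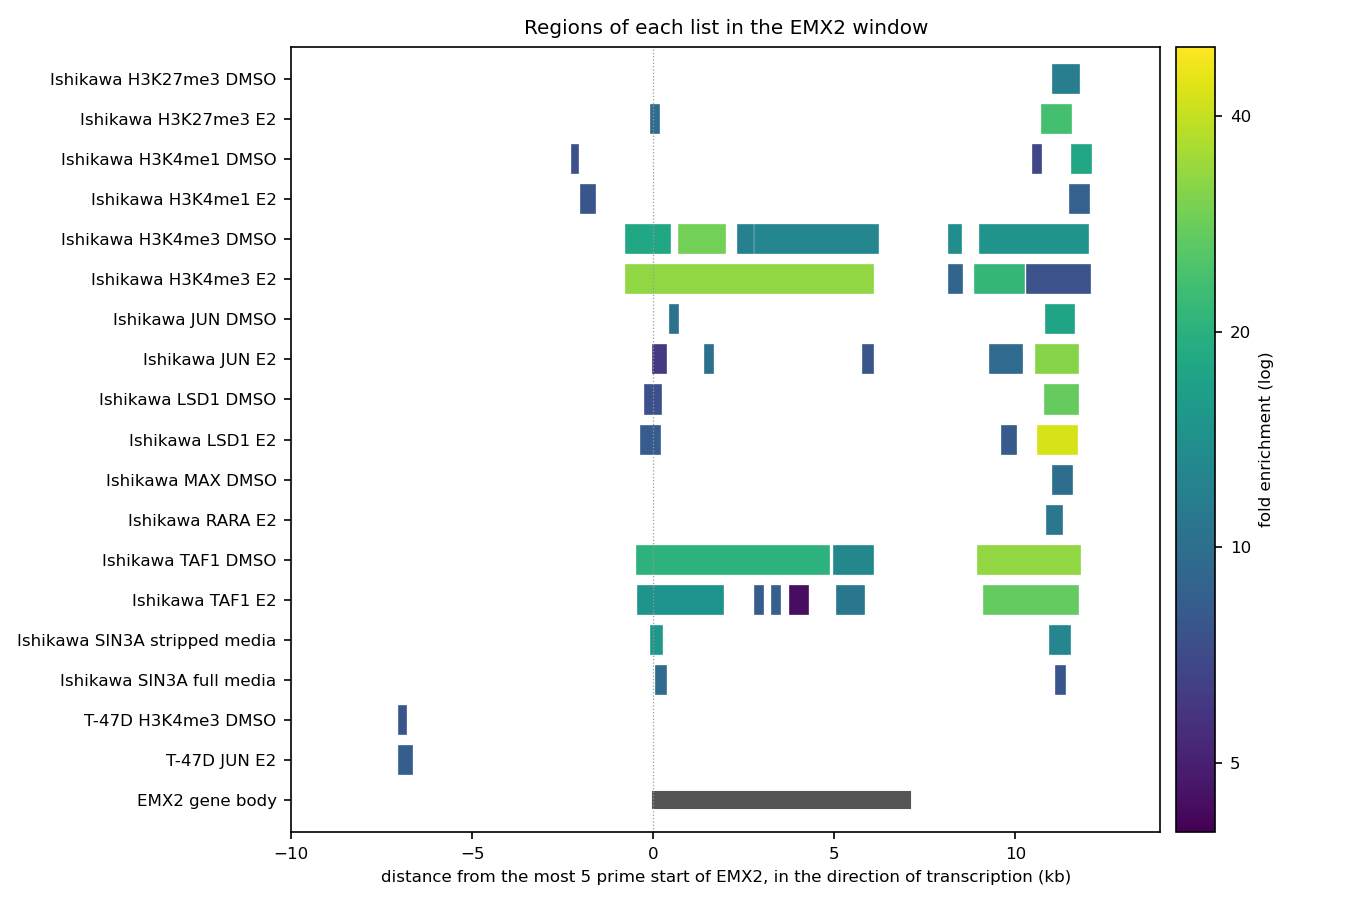
Regions of each list (rows) around EMX2, by distance in kb from the most 5′ start (x axis), colored by fold enrichment (log scale), with the gene body as a grey bar. Regions of 16 Ishikawa lists stack between 8.88 and 12.09 kb, where LSD1 in E2 reached 43.0, and the 2 T-47D rows hold a region near -7.01 kb only.

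SOX17 (chr8:55370495-55373452, plus strand, 1 start) encodes an HMG-box factor of endoderm and Müllerian epithelium. TAF1 marked its start in Ishikawa with folds of 16.0 in DMSO and 15.0 in E2, and JUN with 8.95 and 9.60. H3K4me3 was weak: at the start there was a region in E2 only, with a fold of 6.95, and 99.3% of genes with a start-site region were as high. In DMSO the nearest regions lay at 0.67 and 1.74 kb, with folds of 6.35 and 9.12. Upstream, from -5.13 to -2.77 kb, a merged intergenic region was held by 8 Ishikawa lists, with JUN at 7.95 in DMSO and 13.2 in E2, LSD1 at 6.40 and 9.98, and TAF1 at 9.91 and 6.17. It held 1 AP-1 match, at -4.81 kb. T-47D had 0 regions in the whole window, in any of 24 lists.

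MSX1 (chr4:4861392-4865663, plus strand, 2 starts), a homeobox factor of the uterine epithelium, was the member with start-site regions in both lines and several targets. In Ishikawa, H3K4me3 had folds of 22.3 and 21.5 (DMSO and E2), TAF1 29.0 and 19.9, LSD1 9.43 in E2 and SIN3A 9.64 in stripped media. JUN was at the second start in DMSO (2.89 to 4.20 kb, 13.5) and at both in E2, with 16.1 at the first. In T-47D, H3K4me3 had 10.1 in DMSO. In E2 its region began at 0.38 kb, just outside the start-site limit, with a fold of 7.38. JUN had 11.8 and 13.8 in T-47D, where 57.8% and 60.5% of all genes had a JUN region at a start. RNAPII was at the MSX1 start in replicate 1 of both treatments, with folds of 46.1 in DMSO and 29.5 in E2, and in replicate 2 of neither. The replicate 1 lists were longer (39371 and 46282 regions against 21291 and 23433) and covered 64.2% and 59.7% of all gene starts. In both DMSO libraries together 46.3% of genes and 0 of the 7 had RNAPII at a start. A merged intergenic region from 6.38 to 8.46 kb was held by 10 Ishikawa lists, with JUN at 14.5 and 14.6, LSD1 at 9.81 and 9.41, TAF1 at 12.5 and 10.2 and H3K4me1 at 9.74 and 12.1, and by none of T-47D.

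HAND2 (chr4:174446120-174451380, minus strand, 3 starts) encodes a basic helix-loop-helix factor of heart, limb and endometrial stroma, and HAND2-AS1 starts 124 bp away on the other strand. Its start had H3K4me3 in Ishikawa only, with a fold of 19.7 in DMSO and 10.8 in E2, and SIN3A in stripped media with 9.86. At 35.84 kb, H3K4me3 was in both lines, with 10.1 and 12.6 in Ishikawa and 11.9 and 17.8 in T-47D (DMSO and E2). The T-47D E2 value was the highest H3K4me3 fold of that line in the 7 windows, number 787 of 29081. No other target had a region at this place. T-47D JUN had regions near -8.6 kb, at an exon of HAND2-AS1, with 8.16 and 8.50.

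FOXA2 (chr20:22561636-22566093, minus strand, 2 starts), the forkhead factor of endometrial glands, had 0 regions in 21 Ishikawa lists. Its only region was H3K4me3 in T-47D DMSO, 204 bp wide with a fold of 9.45, at its second start from 0.97 to 1.17 kb. It was absent from the E2 list.

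**Figure D5:**
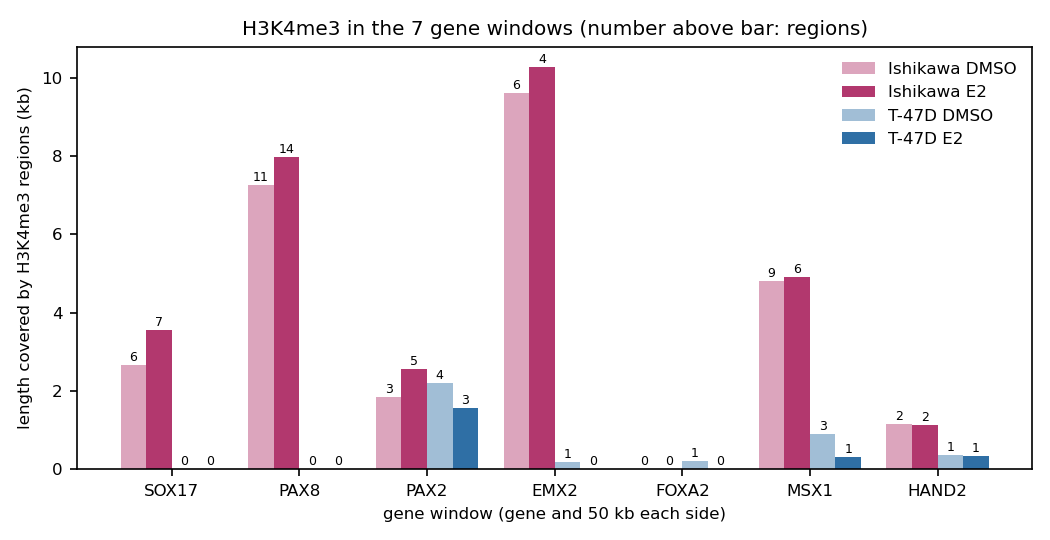
Length covered by H3K4me3 regions in kb (bars) in each gene window, for Ishikawa and T-47D in DMSO and E2, 1 library per bar, with the number of regions above it. EMX2 (9.61 and 10.3 kb) and PAX8 (7.26 and 7.97 kb) were highest in Ishikawa, against 0 to 0.185 kb in T-47D, while PAX2 was between 1.57 and 2.55 kb in all 4 libraries.

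The window regions of the 2 lines were overlapped in 20 pairs of target and treatment. The share of the whole lists that overlaps between lines was not counted. The counts below therefore describe these windows and do not show that they differ from the rest of the lists. For H3K4me3 in DMSO, 4 of 37 Ishikawa and 6 of 10 T-47D regions overlapped a region of the other line, and in E2 these were 4 of 38 and 5 of 5. All of them were at PAX2, MSX1 or HAND2. For JUN in E2, 2 of 32 and 2 of 6 overlapped, at MSX1 and at the PSD4 start in the PAX8 window. In the other pairs no region was shared, and apart from JUN in DMSO, with 3 regions, T-47D had none in the windows.

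The regions of DMSO and E2 were then compared within each line, to ask how the windows changed with estradiol. Each count of regions without a partner in the other treatment is given beside the share of the whole list without one. Of 32 Ishikawa JUN regions in E2, 24 had no DMSO region, against 81.6% of the whole JUN list, which grew from 3768 to 18311 regions. For LSD1 these were 10 of 18 (55.6%) against 64.6%, and the list grew from 8618 to 18384. The 8 JUN regions with a DMSO partner were 3 in the PAX8 window, 2 at SOX17, 2 at MSX1 and 1 at EMX2 downstream. Of 11 JUN regions in DMSO, 2 had no E2 region (18.2%, against 5.04%), 1 at SOX17 (8.84) and 1 at EMX2 (10.4), and of 9 LSD1 regions 1 had none (11.1%, against 23.5%). At PAX8 intragenic the JUN fold was 10.0 in DMSO and 17.4 in E2, and at EMX2 downstream 17.5 and 31.6. Of 45 H3K4me1 regions in DMSO, 15 had no E2 region (33.3%, against 38.0%), and of 33 in E2, 5 had no DMSO region (15.2%, against 19.9%). Of 21 TAF1 regions in DMSO, 5 had no E2 region (23.8%, against 21.5%), and of 22 in E2, 0 had no DMSO region (against 2.82%). Ishikawa H3K4me3 had 10 of 38 regions without a DMSO partner (26.3%, against 11.4%) and 5 of 37 without an E2 partner (13.5%, against 6.67%). Of the 10 without a DMSO partner, 6 were in the PAX8 window and 2 at PAX2, and all but the PAX2 start region (12.6) had folds under 10. All 5 without an E2 partner, at PAX8 and MSX1, had folds under 10. In T-47D, 5 of 10 H3K4me3 regions had no E2 partner, against 18.7% of the list, and these were the regions at FOXA2 (9.45) and EMX2 (7.70), 1 past the end of PAX2 (6.33) and 2 at MSX1 (9.04 and 10.5). All 5 H3K4me3 regions in T-47D E2 had a DMSO partner, and 9.45% of that list had none. Of 6 T-47D JUN regions in E2, 3 had no DMSO partner, against 23.1% of the list, at PAX2, EMX2 and PSD4. All 3 in DMSO had an E2 partner, and 28.3% of that list had none. These numbers are small and rest on 1 library per treatment. H3K4me1 regions were in the windows of 4 members in Ishikawa DMSO (PAX8, PAX2, EMX2 and MSX1), against 55.5% of all genes.

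Other gene lists were set beside the members as a check of the lines. The luminal breast factors were 9 genes, which include GATA3, FOXA1, ESR1 and SPDEF. All 9 had start-site H3K4me3 in T-47D in DMSO and in E2, against 5 and 6 in Ishikawa. TAF1 was at 7 of them in T-47D in both treatments, and in Ishikawa at 4 in DMSO and 3 in E2. For H3K4me3 the shares of all genes were 62.1% and 59.0% in T-47D and 67.3% and 68.2% in Ishikawa. For TAF1 they were 23.0% and 27.9% in T-47D and 59.9% and 55.8% in Ishikawa. The Ishikawa H3K4me3 counts of luminal factors lay near the share of all genes, and the Ishikawa TAF1 counts lay below it. GATA3 had H3K4me3 folds of 23.0 and 19.1 in T-47D, and 10.0 in Ishikawa in E2 alone. Of 16 genes of duct and endometrium development, 12 had H3K4me3 in Ishikawa in each treatment, against 6 and 5 in T-47D. The Ishikawa count was again near the share of all genes, and the T-47D counts were below it. WNT7A had folds of 35.1 and 37.1 and HOXA13 26.7 and 29.5 in Ishikawa, and neither had a start-site region in T-47D, while WT1, GATA2 and NR2F2 were among those marked in both lines and treatments. Of 8 relatives of the members, 4 and 7 had it in Ishikawa and 4 and 4 in T-47D, in DMSO and E2. MSX2 was marked in T-47D only (16.3 and 12.4), the reverse of the order seen for its relative MSX1.

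The genes whose best start-site folds ran most like each member over the 45 lists were named as a description. For EMX2 these were SLIT2 (Pearson r of log2(fold + 1) of 0.993), MCTP2 (0.950) and CAV1 (0.945), for PAX8 FAT2 (0.899), CCDC33 (0.897) and GPNMB (0.881), and for SOX17 ARMCX4 (0.861), SP8 (0.749) and MYOM2 (0.727). For MSX1 they were UBL4A (0.963), DOT1L (0.949) and MIER2 (0.899). PAX2 and HAND2 had regions in only 3 lists, so their values of up to 0.997 (FGD5 and DDIT4L) rest on few points. The points share libraries, and many lists are 0 for both genes of a pair.

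The base composition of the starts overlapped between genes with more regions in Ishikawa and the others. The GC content of the 501 bp around the most 5′ start was 62.5% at PAX8, 67.3% at EMX2, 73.5% at SOX17 and 77.8% at MSX1, and 68.7% at PAX2, 57.1% at FOXA2 and 55.9% at HAND2, against a median of 61.7% over all genes. The observed over expected CpG ratio was lowest at PAX8, at 0.430, and 69.3% of all genes were as high or higher.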

How the data were processed

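ChIP-seq of 49 samples was deposited, and 45 of them came with a peak list. The remaining 4, all inputs, had no list and were left out. Per the study's methods and processing notes, the authors kept uniquely placed reads from Bowtie 1.1.2 on hg19 and called peaks in each library with MACS2 2.1.0.20140616. For each peak the authors deposited a score (10 times the −log10 p-value), the fold enrichment as a ratio, the −log10 p-value and, as its adjusted form, the −log10 q-value. No peak had a −log10 p-value under 10.0, and −log10 q-values began at 4.66, a stricter limit than the default q-value named in the methods. The lists give no read depth, so their lengths stand in for it. H3K4me3 domains can be split into several narrow peaks, which is why covered length is given beside counts.

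Peaks were placed on GENCODE release 44 mapped to GRCh37. Each peak was counted once, at a start site (250 bp either side of any transcript start of the gene), else in the body, else in the 50 kb flanks. Overlap needed 1 bp. Backgrounds are shares of 20098 protein-coding genes or of the whole list. Coordinates are 1-based. Merged regions join overlapping peaks of all lists of a line. Sequences were read from the GRCh37 genome. The 20 pairs of lists between lines, and DMSO against E2 within each line, were described with no test. Named were all 7 genes in all lists, the strongest start-site H3K4me3 region and the distal region held by most lists per gene and line, the strongest region per target and line, and the 3 most similar genes for members with regions in 3 or more lists. Alternatives were a wider or single start, stricter fold or q-value limits, lists of equal length, other flanks, a 50% overlap and RNAPII without each library. Genes, lists and alternatives were chosen with earlier results of these data known. Counting was checked on simulated lists over 20098 genes, with 0 wrong. Python 3.11.15, pandas 2.3.3, numpy 2.4.6, pysam 0.24.0 and matplotlib 3.10.9 were used.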

Additional observations from a re-analysis of the deposited data

Results flagged for a closer look

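H3K4me3 regions in the 7 windows went from 37 in DMSO to 38 in E2 in Ishikawa, a change of 1, and from 10 to 5 in T-47D, a change of -5. They are listed because the 2 lines moved in opposite directions, with a difference of 6 regions between the changes. The whole H3K4me3 lists moved in the same directions, from 29597 to 31901 regions in Ishikawa and from 30774 to 29081 in T-47D. Each value is 1 library, and the difference was not tested. Covered length was 27.3 and 30.4 kb in Ishikawa and 3.83 and 2.22 kb in T-47D, at mean folds of 11.2 and 11.1 and of 9.43 and 11.1.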

How the results depend on the processing

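No paired analysis was possible because the results come from no test and, apart from RNAPII, each group is 1 library. With a fold of at least 10, start-site H3K4me3 was at 1 and 0 members in T-47D (DMSO and E2; 3 and 1 in the report), H3K27me3 at 0 and 0 in Ishikawa, and the start-site lists summed over members were 22 in Ishikawa and 5 in T-47D (40 and 8). Under the same limit the windows held 112 and 11 regions (298 and 24 over the 20 pairs), H3K4me1 6 and 1, regions overlapping the other line 6 and 7 (10 and 13), gains with E2 22 and 1 (53 and 3) and losses 12 and 2 (30 and 5). A −log10 q-value of at least 10 left H3K27me3 in Ishikawa DMSO at 0. With only the most 5′ start, T-47D had H3K4me3 at 1 and 0 members and a sum of 5 lists, and with 1 kb either side it had 2 in E2. With lists of equal length between lines, Ishikawa had H3K27me3 in E2 at 0 members, TAF1 in DMSO at 2, a sum of 24 lists, 127 window regions and H3K4me1 at 6 and 1. With lists of equal length between treatments, Ishikawa gained 18. With 100 kb flanks T-47D had 46 window regions and RNAPII means of 5 and 7 (1.5 and 2). A reciprocal overlap of 50% gave 5 and 5 shared regions and 57 Ishikawa losses. Without PAX8, an alternative added after seeing the data, Ishikawa had 143 window regions, 29 gains and 11 losses. Leaving out each RNAPII library in turn gave 0 to 3 in DMSO and 1 to 3 in E2, with the lowest values without replicate 1. With 25 kb flanks the windows held 295 and 22 regions, and H3K4me1 counts did not change. Window regions over the 20 pairs were more numerous in Ishikawa under each setting run for them, namely the fold and q-value limits, equal length between lines, both other flanks and without PAX8. List length, the only sign of depth, limits absence in T-47D most for TAF1, H3K4me1, LSD1 and SIN3A.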
